A study of Homo sapiens with 4 samples.

Results

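MYBPH, RASD1, TMOD1 and C1orf167 are 4 genes that stood among the largest rises in DU145 cells after knockdown of ESS2. They were chosen by their measured DU145 ratios of knockdown to control, so their DU145 values are a description and were given no test. The 4 genes were taken from 25121 gene symbols on the array, through every probe whose accession carries one of these symbols. ESS2 is a nuclear protein that associates with the spliceosome and acts as a transcriptional coregulator. PC3 and DU145 are established, androgen-insensitive human prostate cancer cell lines. Each line carried either an shRNA against ESS2 (PC3-shESS2, DU145-shESS2) or a luciferase control shRNA (PC3-shC, DU145-shC). The labels call the cells transduced, and the design text names a lentivirus, whereas the methods of the study describe plasmid transfection and weeks of puromycin selection for PC3 and no DU145 line. All cells were grown in RPMI medium with serum, without further treatment, and the number of clones is not given in the sources used here. Total RNA of each of the 4 cultures was hybridised to 1 array with 1 colour (Cy3). With 1 array per condition, a difference between conditions could not be set against replicates, and p-values were not computed. In bulk RNA, a higher level in every cell and a larger share of expressing cells cannot be told apart.

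The first gene, MYBPH, encodes myosin binding protein H of the skeletal muscle thick filament. It belongs to the same family as the cardiac and skeletal myosin binding proteins C, and it has been described as an inhibitor of the kinase ROCK1 in lung adenocarcinoma cells. TMOD1 encodes tropomodulin 1, which caps the slow-growing (pointed) end of actin filaments in erythrocytes and striated muscle. RASD1 encodes a small GTPase of the RAS superfamily that is induced by dexamethasone and also known as activator of G-protein signalling. C1orf167 is an open reading frame of unknown function on chromosome 1.

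The promoters of MYBPH and RASD1 are printed because both hold the same TATA-like string close to the start site, and that of TMOD1 because it is the other promoter of the 4 genes with a match. Each sequence runs 5′ to 3′ on the strand of the gene, from 250 bases before to 50 bases after a RefSeq start site (build GRCh38.p14). Capitals mark the motif matches.
MYBPH, chr1:203175777-203176076, minus strand: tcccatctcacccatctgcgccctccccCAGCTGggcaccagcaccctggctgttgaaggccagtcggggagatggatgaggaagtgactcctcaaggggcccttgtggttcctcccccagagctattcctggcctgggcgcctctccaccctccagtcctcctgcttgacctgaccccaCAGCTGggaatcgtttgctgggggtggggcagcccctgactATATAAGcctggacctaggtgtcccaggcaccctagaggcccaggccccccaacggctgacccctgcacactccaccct
RASD1, chr17:17496346-17496645, minus strand: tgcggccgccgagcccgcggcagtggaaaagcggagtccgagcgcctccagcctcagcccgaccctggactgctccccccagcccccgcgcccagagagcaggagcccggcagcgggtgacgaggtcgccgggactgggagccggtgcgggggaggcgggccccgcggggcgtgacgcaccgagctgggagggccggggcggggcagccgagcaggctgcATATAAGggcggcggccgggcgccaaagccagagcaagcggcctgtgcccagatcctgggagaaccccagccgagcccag
TMOD1, chr9:97500930-97501229, plus strand: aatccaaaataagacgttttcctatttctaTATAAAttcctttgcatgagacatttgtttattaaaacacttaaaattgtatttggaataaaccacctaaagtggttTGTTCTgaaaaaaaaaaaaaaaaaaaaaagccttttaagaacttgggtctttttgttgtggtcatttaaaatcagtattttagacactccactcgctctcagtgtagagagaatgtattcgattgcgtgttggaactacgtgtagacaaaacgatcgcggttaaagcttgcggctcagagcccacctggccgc

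In the MYBPH promoter, the E-box CAGCTG, a motif bound by myogenic and other basic helix-loop-helix factors, began 222 and 70 bases before the start site. Of 35116 human promoters of the same length, 17.9% held CAGCTG at least 1 time on either strand and 2.05% at least 2 times. The string ATATAAG began 29 bases before the start of MYBPH and 30 bases before the start of RASD1. It was searched for after these promoters had been read. On either strand it was in 1.92% of all promoters, and on the strand of the gene between 40 and 20 bases before the start in 0.453%. The TMOD1 window held TATAAA, 220 bases before the start, and the glucocorticoid response motif AGAACA on the reverse strand (TGTTCT as printed), 143 bases before the start. TATAAA was in 11.5% and AGAACA in 14.8% of all promoters. The second RefSeq start of TMOD1 (chr9:97501416-97501715, plus strand) and the window of C1orf167 (chr1:11761943-11762242, plus strand) held no match to any motif searched on both strands. The others searched were TGACGTCA (CRE, in 1.85% of all promoters), TGACTCA (AP-1, 4.95%), an NF-kB motif (0.191%) and a MEF2-like motif (0.128%), and none of the members' windows held them. GC content was 64.7% for MYBPH, 76.3% for RASD1, 35.3% and 83.3% for the TMOD1 windows and 68.0% for C1orf167, against a median of 58.7% over all promoters.

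Signals were read as the processed signal of each spot. Levels were compared between arrays as log2 of this signal after each array had been set to its own 75th percentile, and a ratio is the knockdown minus its control on that log2 scale. Between 50.8% and 52.6% of spots were well above background per array, and the lowest signals called so were 8.15 to 9.02. The targeted gene was lower under its shRNA in both lines, at 133 and 53.6 in PC3-shC and PC3-shESS2 and at 85.7 and 17.3 in DU145-shC and DU145-shESS2 (2.74-fold and 5.09-fold lower). The reference genes GAPDH and ACTB had ratios between -0.039 and 0.18. CTNNA1, which is deleted in PC3, was not above background on either PC3 array and was above it on both DU145 arrays. The epithelial markers KRT8, KRT18, EPCAM and CDH1 were above background on all 4 arrays, although EPCAM was lower in DU145-shESS2 (357) than in DU145-shC (2120). The prostate luminal marker KLK3 was not above background on any array. Of the leukocyte and fibroblast markers, PTPRC, CD14, COL1A1 and PDGFRB were above background on all 4 arrays, and CD3E, COL3A1 and DCN on none. In DU145 the ratios of PTPRC, CD14, COL1A1 and PDGFRB lay between -0.21 and 0.63, and the part of such transcripts in the results was not tested. Each line had its arrays on a slide and scan of its own, so line and slide cannot be told apart, while knockdown and control of 1 line shared a slide.

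MYBPH gave the largest ratio of all 15933 genes above background on both DU145 arrays. Its single probe (A_23_P148737, 1 spot) read 16.8 ± 2.51 in PC3-shC, 18.1 ± 2.63 in PC3-shESS2, 112 ± 11.4 in DU145-shC and 1900 ± 190 in DU145-shESS2, where ± is the error that the scanner software assigns to the spot. The PC3 levels lay within this error of each other and low above background, DU145-shC was higher and DU145-shESS2 highest. The log2 ratio was 4.04 in DU145 (16.5-fold higher, spot error 0.21) and -0.033 in PC3 (spot error 0.30). The control cells already differed, with MYBPH 8.27-fold higher in DU145-shC than in PC3-shC. Among all genes compared between the control arrays, 19.9% were over 2-fold higher in DU145-shC.

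**Figure D1:**
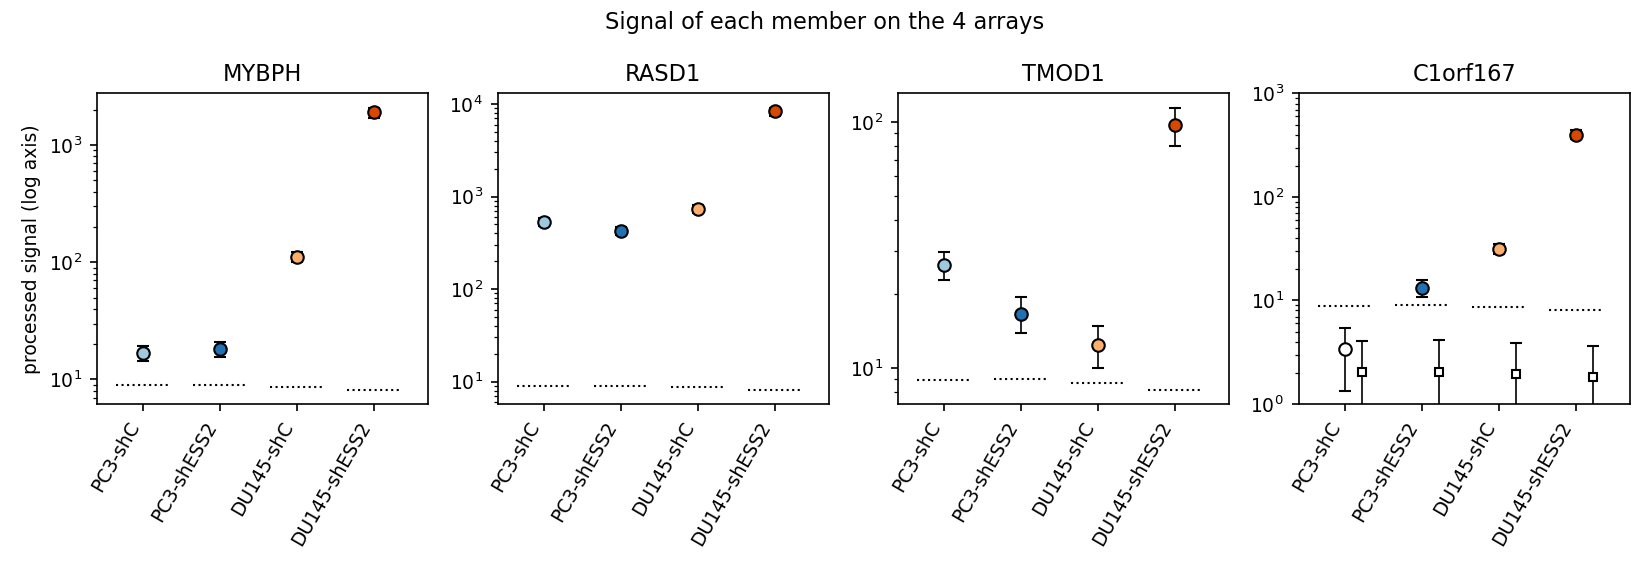
Processed signal (log axis, 1 panel per gene with its own scale) on the 4 arrays. Filled symbols are well above background and open ones are not, squares are the second C1orf167 probe, bars are the error that the scanner software gives a spot (for RASD1 the mean over its spots; bars of the second C1orf167 probe run below the axis), and dotted lines are the lowest signal well above background. DU145-shESS2 was highest for each gene, from 96.9 for TMOD1 to 8326 for RASD1.

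The relatives of MYBPH did not share its pattern. MYBPHL, MYBPC1 and MYBPC2 were not above background on any array. MYBPC3, the cardiac form, read between 23.0 and 34.9, with ratios of -0.11 in DU145 and -0.17 in PC3. Of the skeletal muscle markers, MYH2 and CKM were not above background on any array. MYOG read 19.5 to 23.6, ACTA1 17.8 to 28.4 and DES 147 to 244, and their DU145 ratios were -0.17, -0.20 and -0.040. The part of muscle-type expression in the MYBPH level was not tested.

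Other thick filament genes were mostly near their controls. In DU145, 0 of 19 compared genes of the myosin and thick filament list were over 2-fold higher, where 2.36% of all 16842 genes were, and 2 were over 2-fold lower, where 2.47% of all genes were. These 2 were the myosin heavy chains MYH11 (log2 ratio -1.89 or lower) and MYH13 (-1.63 or lower), both not above background in DU145-shESS2. In all lists, a gene known by a bound alone was counted where its bound passed 2-fold. The list's median ratio was 0.037 in DU145, against -0.021 for all genes. In PC3, 1 of 18 was over 2-fold higher, where 3.88% of all 16764 genes were, and 0 were over 2-fold lower, where 3.87% were. The list's PC3 median was -0.062, against -0.055 for all genes. With normexp none of these 3 calls was left, nor did the 2 in DU145 stay with genes above background on both arrays or the 1 in PC3 with the mean of all probes, which left 1 of the 2 in DU145. The split of calls over all genes moved with the scaling. The share of higher genes among those called in PC3 was 50.04% as scaled here, 38.9% with each array set to its median and 59.7% with the authors' scaled values. In DU145 it was 48.8%, and 64.4% with normexp background correction.

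In the ROCK list, which holds the kinases that MYBPH has been linked to and their actomyosin targets, 0 of 18 genes were over 2-fold changed in DU145 (2.36% of all genes higher, 2.47% lower), with a median ratio of 0.23, against -0.021 for all genes. In PC3, RND1, a small GTPase that lowers RHOA activity, was higher (1.75, where 3.88% of all genes were) and the median was 0.10, against -0.055. A further gene of the 18, RND2, had a bound of 0, and 2 ROCK genes were over 2-fold higher in PC3 with dim spots unfloored, with the mean of all probes and with the authors' scaled values. With the mean of all probes, 1 was higher in DU145. Among the muscle regulators (MYOD1, MYOG, the MEF2 genes, SRF and their cofactors), 0 of 11 in DU145 and 0 of 14 in PC3 were over 2-fold changed, with the same shares over all genes. Their medians were 0.056 and -0.00070, against -0.021 and -0.055 for all genes. In the list of SRF and MRTF targets, 2 of 18 genes were over 2-fold higher in DU145 (2.36% of all genes) and 0 lower (2.47%), with a median of 0.25, against -0.021 for all genes. The 2 genes were the immediate-early factors FOS (1.499) and JUNB (1.06). In PC3, ACTA2, smooth muscle actin, was the single gene of 19 past 2-fold (-1.24, where 3.87% of all genes were lower), and the median was 0.075, against -0.055. The PC3 count was 0 with normexp and 2 with median scaling.

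TMOD1 read 26.1 ± 3.40 in PC3-shC, 16.6 ± 2.79 in PC3-shESS2, 12.4 ± 2.44 in DU145-shC and 96.9 ± 17.3 in DU145-shESS2 (probe A_23_P112289, 1 spot). The first 3 levels were all low above background, and those of PC3-shESS2 and DU145-shC lay within their errors of each other. The log2 ratio was 2.93 in DU145 (7.60-fold higher, spot error 0.38) and -0.79 in PC3 (1.73-fold lower, spot error 0.31). The knockdown value of DU145 came from an uneven spot. Its net median pixel, after subtraction of the local background and of the negative controls, was 39.5, against a processed signal of 96.9. This quotient of 0.41 was the lowest among 7100 spots with signals of 50 to 200 on that array, whose median was 1, and 98% of those spots lay between 0.833 and 1.23. The spot's error of 17.9% was reached or passed by 3 of these spots, with a median of 10.2%. The software had not marked it as non-uniform.

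**Figure D2:**
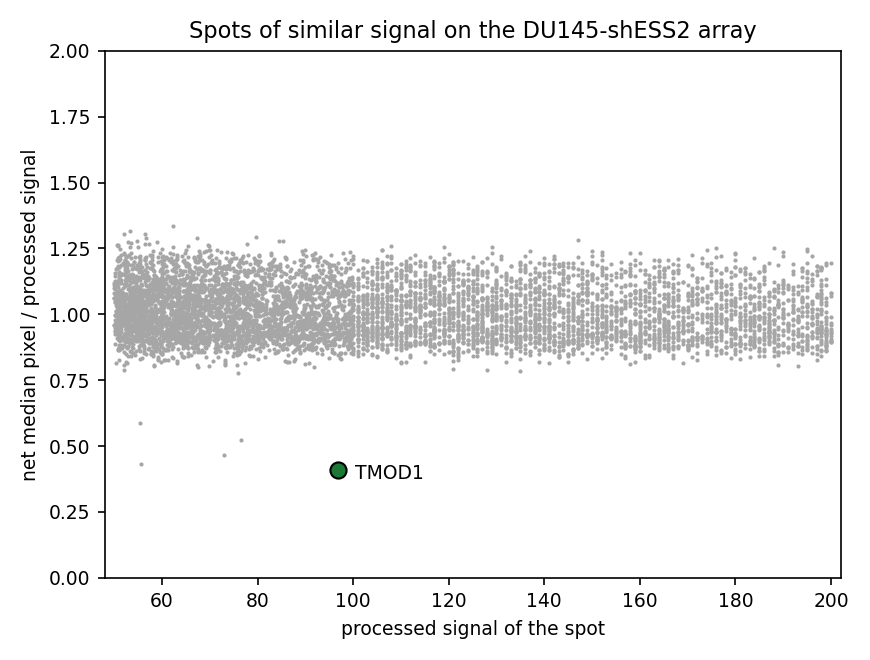
Net median pixel divided by processed signal (linear axis) against processed signal, for 7100 spots of the DU145-shESS2 array with signals of 50 to 200 (grey) and for the TMOD1 spot (green). The TMOD1 spot lies at 0.41, below every other spot of the range, whose median was 1.

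On net median pixels, TMOD1 read 25, 17.5, 14.5 and 39.5 in PC3-shC, PC3-shESS2, DU145-shC and DU145-shESS2. DU145-shESS2 was still the highest, but the DU145 ratio was 1.43 in place of 2.93, and TMOD1 stood at position 242 of the DU145 ratios in place of 12. With normexp background correction, which here also starts from the median pixel and adds an offset of 50, the ratio was 0.42, which is under 2-fold. The PC3 ratio stayed below 0 under all settings (-0.90 to -0.26).

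Of its paralogues, TMOD3, the widely expressed form, read 557, 870, 1120 and 1410 in the same order of arrays, with ratios of 0.50 in PC3 and 0.29 in DU145. TMOD2, the neuronal form, had ratios of 0.22 and 0.32, and TMOD4, the skeletal muscle form, 0.016 and 0.055. None of the 3 paralogues was over 2-fold changed in either line. Of the thin filament list, 1 of 20 genes in DU145 was over 2-fold higher (2.36% of all genes), TNNC1, which encodes the troponin C of slow muscle and heart (1.04). In DU145, 2 were lower (2.47% of all genes), the nebulin relative NEBL (-1.07) and the cardiac troponin I gene TNNI3 (-1.02). These calls lay close to 2-fold. Of the 2 lower genes, 1 was left with median scaling or the authors' scaled values and 0 with normexp or the median pixel, and normexp also left 0 higher. The median was 0.0080, against -0.021 for all genes. In PC3, 2 of 24 were higher (3.88% of all genes), TPM4 (1.16), a tropomyosin, and CAPG (1.11), which caps the other (barbed) filament end. The actins ACTG2 (-2.23) and ACTA2 (-1.24) were lower (3.87% of all genes), and the median was 0.20, against -0.055 for all genes. With normexp, 1 of the 2 was lower. Tropomodulin 1 also works in the spectrin membrane skeleton of red cells. In DU145, 0 of 21 genes of that list were over 2-fold higher (2.36% of all genes) and 2 were lower (2.47%). These were the membrane linker EPB41L3 (-2.18 or lower) and ankyrin ANK3 (-1.63), which was higher in PC3 (0.93, within 2-fold). In PC3, EPB41L2 was the single gene of 17 past 2-fold (1.25, where 3.88% of all genes were higher). The DU145 count of 2 was 0 with normexp and 1 with the mean of all probes or with genes above background on both arrays. In PC3 it was 2 higher with quantile normalization or the authors' scaled values, and 1 lower with median scaling. The list's medians were 0.011 in DU145 and 0.049 in PC3, against -0.021 and -0.055 for all genes.

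RASD1 was the most closely measured of the 4 genes, since its probe (A_23_P118392) was printed in 10 spots on each array. The mean signal was 534 in PC3-shC (10 spots, 492 to 574), 428 in PC3-shESS2 (9 spots, 408 to 452), 734 in DU145-shC (9 spots, 708 to 790) and 8326 in DU145-shESS2 (10 spots, 7980 to 8680). On PC3-shESS2 and on DU145-shC, 1 outlier spot was left out. The spots of the 4 arrays did not overlap. DU145-shESS2 stood far above the other 3 arrays, and PC3-shESS2 was lowest. The log2 ratio was 3.46 in DU145 (11.04-fold higher) and -0.46 in PC3 (1.38-fold lower). Taken spot by spot, it was 3.46 ± 0.055 in DU145 (SD over 9 spots, 3.39 to 3.54) and -0.45 ± 0.073 in PC3 (SD over 9 spots, -0.56 to -0.31). These spots share 1 RNA sample per array, so the SD is the error of the print and scan and not of the culture. The control cells differed by 1.70-fold, with the higher level in DU145-shC. No setting tried moved the DU145 ratio outside 3.39 to 3.67 or the PC3 ratio outside -0.56 to -0.37.

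**Figure D3:**
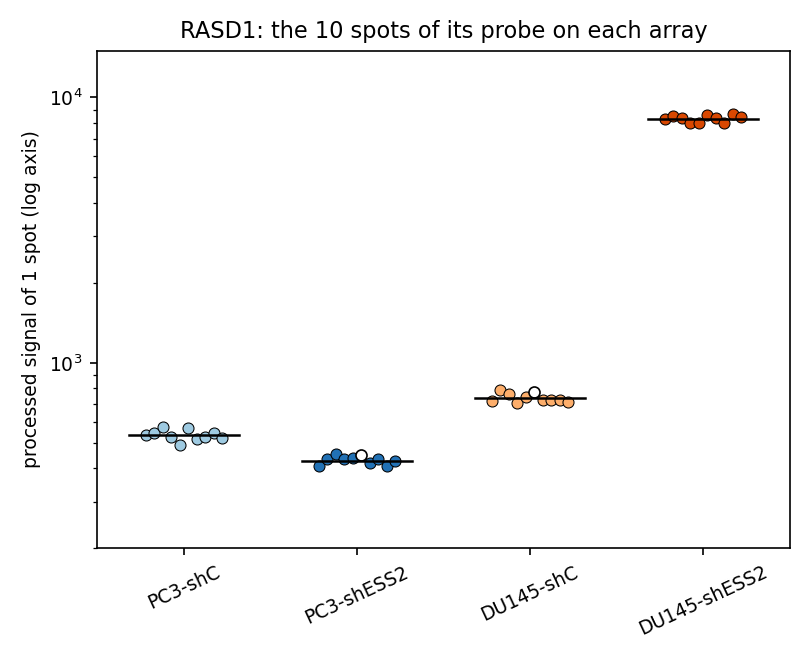
Processed signal (log axis) of each of the 10 RASD1 spots on the 4 arrays. Open points are outlier spots that were left out and lines are the means, which lay at 534, 428, 734 and 8326 from left to right. The spots of the 4 arrays do not overlap.

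RASD2, the closest relative, was near its control in DU145, at 21.4 in DU145-shC and 20.7 in DU145-shESS2 (-0.088). In PC3 it was lower, at 71.4 and 30.7 (-1.36). Among the RASD1 partners and RAS relatives, which include its G-protein subunits, adenylyl cyclases and the adaptor NOS1AP, 0 of 24 were over 2-fold changed in DU145 (2.36% of all genes higher, 2.47% lower), with a median ratio of 0.18, against -0.021 for all genes. In PC3, 2 of 24 were lower (3.87% of all genes), RASD2 and RASL11A (-1.69), with a median of -0.063, against -0.055, and 0 were lower with normexp. Since dexamethasone induces RASD1, the other glucocorticoid-induced genes were counted as well. Without RASD1, 1 of 20 was over 2-fold higher in DU145 (2.36% of all genes), CRISPLD2 (1.30 or higher, not above background in DU145-shC), and 1 was lower (2.47% of all genes), the NF-kB inhibitor NFKBIA (-1.12). The higher gene was not counted with normexp or with genes above background on both arrays, and 2 were lower with quantile normalization or the median pixel. The well-known targets FKBP5, TSC22D3 and PER1 had DU145 ratios of 0.45, 0.13 and 0.19, and the median of the list was 0.12, against -0.021 for all genes. In PC3, 3 of 20 were lower (3.87% of all genes), the metallothionein MT2A (-2.45), NFKBIA (-1.20) and the kinase SGK1 (-1.04), 0 were higher (3.88%) and the median was -0.19, against -0.055. With quantile normalization, normexp or the authors' scaled values, 2 were lower in PC3.

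C1orf167 was measured by 2 probes of the same transcript that disagreed. The brighter probe (A_24_P306594) read 3.37 ± 2.05 in PC3-shC, which was not above background, 13.2 ± 2.47 in PC3-shESS2, 31.6 ± 3.72 in DU145-shC and 401 ± 40.2 in DU145-shESS2. By this probe DU145-shESS2 was far above the other arrays and PC3-shC had no more than a bound. The second probe (A_22_P00000881) read 1.83 to 2.05 and was not above background on any array. On the brighter probe, the DU145 ratio was 3.63 (12.3-fold higher, spot error 0.22). In PC3 the gene was at least 1.34-fold higher under the knockdown, measured against the lowest signal well above background of PC3-shC. This log2 bound of 0.42 was 0.32 with median scaling, 0.034 with normexp and 0 with the mean of both probes, which gives no direction in PC3. DU145-shC was at least 4.39-fold above PC3-shC by the same bound. With the mean of both probes the DU145 ratio was 1.75, and C1orf167 stood at position 74 in place of 6.

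**Figure D4:**
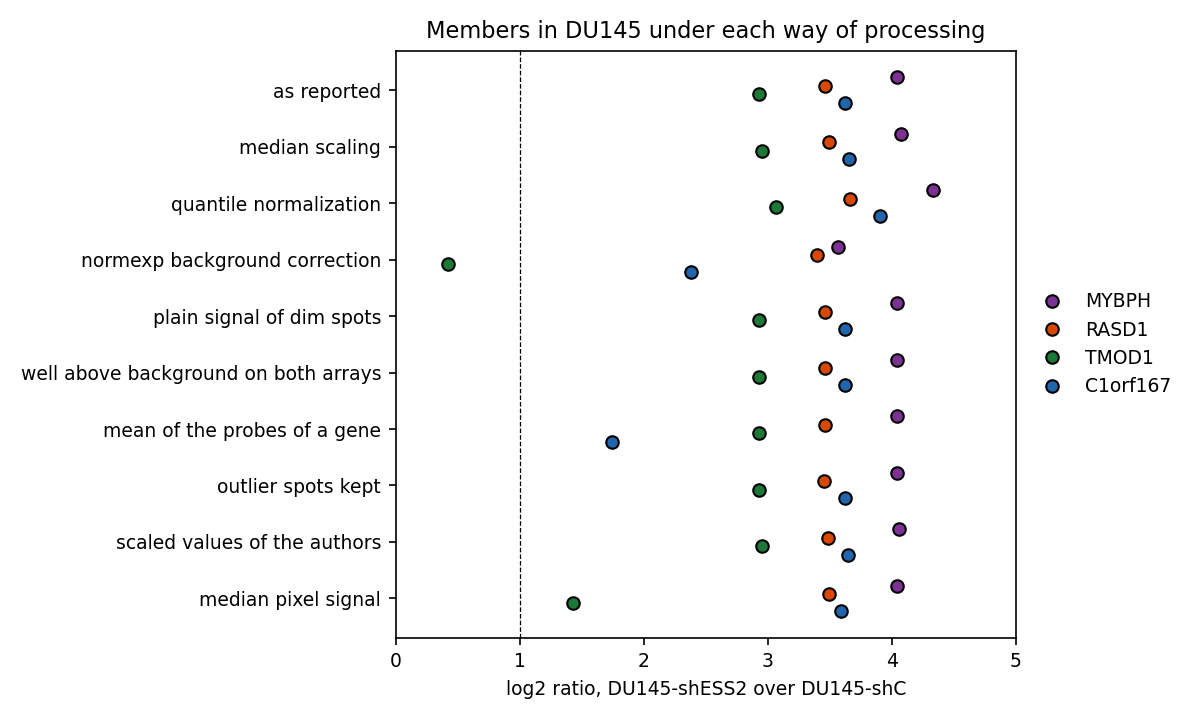
Log2 ratio of DU145-shESS2 over DU145-shC for the 4 genes, as reported and under 9 other ways of processing. The dashed line marks 2-fold. RASD1 stays between 3.39 and 3.67, whereas TMOD1 goes down to 0.42 and C1orf167 to 1.75.

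In the order of all DU145 ratios, 11 genes were over 8-fold higher. MYBPH stood at position 2, C1orf167 at 6, RASD1 at 8 and TMOD1, just under 8-fold, at 12. Many of their neighbours were above background in DU145-shESS2 alone, so that their ratios are lower bounds and their order is not fixed. TMCO5B (at least 3.97), LOC651337 (3.95) and the leucine zipper gene LZTS1 (at least 3.95) lay between MYBPH and C1orf167. KIR2DS4, a natural killer cell receptor gene (at least 3.52), lay between C1orf167 and RASD1. UOX (at least 3.43), SLC25A48 (at least 3.21) and PSG8 (at least 3.001) lay between RASD1 and TMOD1. Just below TMOD1 came UNC93A (at least 2.92), KLB, the beta-klotho coreceptor of FGF19 and FGF21 (2.92), and AMPD1, the muscle AMP deaminase (at least 2.91). Among the 15933 genes above background on both DU145 arrays, MYBPH, LOC651337, C1orf167, RASD1 and TMOD1 held positions 1 to 5 and KLB position 6. With dim values left as measured, the positions among all genes were 19 for MYBPH, 34 for C1orf167, 39 for RASD1 and 68 for TMOD1. With normexp, MYBPH, RASD1 and C1orf167 stood at 1, 2 and 4 and TMOD1 at 1117.

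None of the 4 genes passed 2-fold in PC3, where 3.88% of all genes were higher and 3.87% lower, but the value of C1orf167 is a lower bound, and its plain signals gave 1.83. The PC3 ratios were not used to choose them. RASD1 and TMOD1 lay below 0 in PC3, C1orf167 at or above 0 by its bound and MYBPH at 0 within its spot error, and the sign of MYBPH turned with the scaling (-0.14 to 0.058). The ratios differed between the lines by 4.08 for MYBPH, 3.93 for RASD1, 3.72 for TMOD1 and at most 3.20 for C1orf167 (DU145 minus PC3, log2). The propagated spot errors of the first 3 differences were 0.36, 0.29 and 0.49, and the bound for C1orf167 is given without one, since its plain PC3-shC spot was not above background. These errors leave out the culture, and line and slide cannot be told apart. For TMOD1 the difference was 2.08 on the median pixel and 0.69 with normexp. Of 15478 genes compared in both lines, 260 were over 2-fold higher in DU145. Of these 260, 41 (15.8%) were over 2-fold higher and 27 (10.4%) over 2-fold lower in PC3, and 97 (37.3%) had a PC3 ratio below 0, against 56.5% of all genes.

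**Figure D5:**
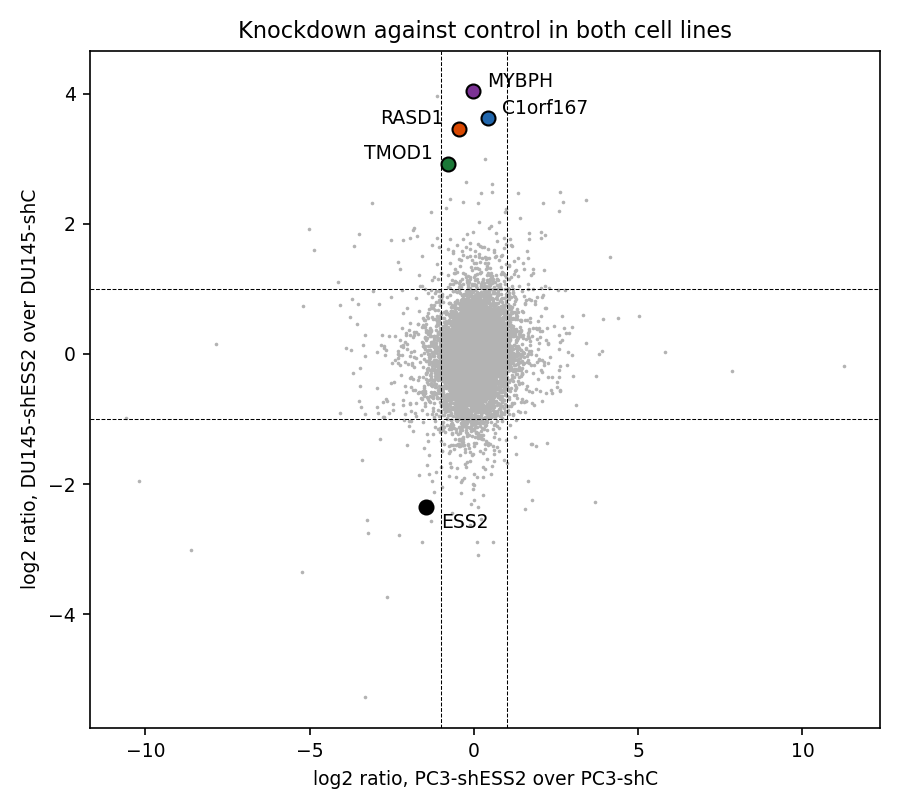
Log2 ratio of knockdown over control in DU145 (vertical) against PC3 (horizontal) for the 15478 genes compared in both lines (grey), with the 4 genes and ESS2 marked. Dashed lines mark 2-fold. The 4 genes lie at the top, between 2.93 and 4.04 in DU145, and within 2-fold in PC3 (C1orf167 at its lower bound), whereas ESS2 lies at -2.35 and -1.45.

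Over the 4 arrays, the profiles of MYBPH, RASD1 and TMOD1 were compared with all others by the Euclidean distance between mean-centred log2 levels, as a description over 4 arrays that include the DU145 contrast used for the choice. For MYBPH the nearest of 14685 genes were CCN5, a secreted matricellular protein (distance 1.81), the orphan nuclear receptor NR4A2 (1.92) and LONRF2 (2.05). These 3 genes had DU145 ratios of 1.49, 1.64 and 1.34. For RASD1 they were DEPP1, a FOXO target gene (1.39), C11orf86 (1.40) and the sodium-calcium exchanger SLC8A1 (1.58), with DU145 ratios of 1.85, 1.78 and 1.53. For TMOD1 they were HP, which encodes haptoglobin (0.88), LOC107986858 (1.05) and ARMH1 (1.13). HP was higher in DU145 (2.18) and lower in PC3 (-1.30). The TMOD1 profile includes the uneven spot. RASD1 and TMOD1 lay 1.69 apart, MYBPH and RASD1 2.41 and MYBPH and TMOD1 4.10. No distance is given for C1orf167, whose level in PC3-shC is a bound.

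Of the genes described here that lie beside the 4 genes, none was over 2-fold higher in DU145 by its brightest probe. Beside MYBPH on chromosome 1, MYOG, the myogenic factor myogenin, had -0.17, the adenosine receptor ADORA1 -0.020 and the chitinase CHIT1 -0.062, and CHI3L1 was not above background on any array. ADORA1 was lower in PC3 by at least 2.71 on the log2 scale. Beside RASD1 on chromosome 17, the mitochondrial nucleotidase NT5M was lower in DU145 (-1.20), while the Mediator subunit MED9 (0.66), the phospholipid enzyme PEMT (-0.32) and SMCR2 (0.054) were within 2-fold. Beside TMOD1 on chromosome 9, TDRD7 (-0.084) and TSTD2 (0.036) were within 2-fold, and the antisense gene TMOD1-AS1 and LOC286359 were not above background on any array. C1orf167-AS1 was likewise not above background on any array. Close to C1orf167, AGTRAP, which binds the angiotensin receptor, had -0.24 and DRAXIN was not above background in DU145.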

How the data were processed

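RNA of 4 cultures, PC3 and DU145 with control or ESS2 shRNA, was measured on Agilent 1-colour arrays, 1 per condition. The authors extracted the intensity of each spot with Agilent Feature Extraction (12.1.0.3 for PC3 and 12.0.3.1 for DU145, array design on hg19, per the file headers) and deposited these scanner files. They also deposited a table of scaled intensity values, which was the processed signal times 1 constant per array (3.52 to 6.17) and was used as an alternative. Its column medians were 41.6 (PC3-shC), 47.5 (PC3-shESS2), 77.6 (DU145-shC) and 77.3 (DU145-shESS2), and the reason for the constants is not given in the sources used here.

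Each array's processed signal was set to its 75th percentile over the 60901 non-control spots (263, 290, 212 and 218 in the same order) and log2 was taken. Outlier spots (82 to 121 per array) were left out, no spot was saturated, and spots of 1 probe were averaged, which gave 58196 probes. Symbols came from RefSeq (GRCh38.p14) by accession without version, for 35077 probes. A gene was read from its brightest probe and compared if 1 or both arrays of the pair held it well above background. A dim value was raised to the lowest signal well above background of its array, so that such a ratio is a bound ("at least"). Genes over 2-fold higher or lower were counted and no test was run. Spot errors were those of Feature Extraction, carried to the log2 ratio, and the number of arrays limits the precision. The calculation was tested on simulated data with changes put into genes bright in the control alone, so genes dim in the control were not covered. Python 3.11.15 and pandas 2.3.3 were used, also for quantile normalization, and limma 3.58.1 for normexp.

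The 4 genes and the 8 gene lists were chosen with earlier results of these data known. Counts and medians of a list leave out the 4 genes. The other genes named were ESS2 and its reference genes, family relatives, the 3 genes on either side in rank, the 3 nearest profiles (for the 3 genes above background on all arrays), the 2 nearest genes on each side and list genes past 2-fold. FKBP5, TSC22D3 and PER1 were added after their values were seen. Some genes that these rules select are not reported here. Alternatives were other scaling, normexp background correction (on the median pixel, offset 50), no floor, a stricter filter, the mean of all probes, no removal of outlier spots, the authors' scaled values and, chosen after seeing the data, the net median pixel.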

Additional observations from a re-analysis of the deposited data

Results flagged for a closer look

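RASD1 was higher in DU145-shESS2 than in its control and lower in PC3-shESS2 than in its control, a difference of 3.93 between the log2 ratios, and this difference was not tested. TMOD1 also had ratios of opposite sign in the lines, with a difference of 3.72 that was not tested either. For TMOD1 the difference rests on 1 uneven spot and was 2.08 on the median pixel.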

How the results depend on the processing

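Of 142 comparisons of the 4 genes' ratios, their differences between lines and the counts of changed genes with another setting, 122 moved by less than the spot error (counts: less than 1.5 times; C1orf167 in PC3 and its difference: the wide error of its plain spots, 0.92 and 0.94) and no called value changed direction. RASD1 moved under none of them. Part of the 142 comparisons could not move. MYBPH, RASD1 and TMOD1 have 1 probe each, above background on all 4 arrays. For them, no floor, the stricter filter and the mean of all probes left the ratios unchanged by construction. For MYBPH and TMOD1, whose 1 spot was not an outlier, so did the keeping of outlier spots. Quantile normalization gave 4.33 for MYBPH and 3.90 for C1orf167 in DU145, and 4.45 for the difference of MYBPH between lines. Normexp gave 3.56 for MYBPH, 2.38 for C1orf167 and 0.42 for TMOD1 in DU145, -0.26 for TMOD1 in PC3, and differences of 3.66 for MYBPH and 0.69 for TMOD1. Its offset of 50 draws low signals together. The median pixel gave 1.43 for TMOD1 in DU145 and a difference of 2.08. For C1orf167, the mean of its probes gave 1.75 in DU145 and a difference of 1.75, and dim spots without the floor gave 1.83 in PC3 and a difference of 1.80. Within that wide error, normexp gave a difference of 2.35 for C1orf167. With genes above background on both arrays, C1orf167 had no PC3 value.

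The 650 higher and 649 lower genes in PC3 became 248 and 323 with normexp. The 397 higher and 416 lower genes in DU145 became 139 and 77 with normexp, and the lower ones 271 with genes above background on both arrays. Setting each array to its median moved the median of all PC3 ratios from -0.055 to -0.16. Of the list counts, 260 stayed within 1.5 times and 28 did not. No paired analysis was possible because each condition has 1 array and the labels carry no replicate numbers. Single spots near background (MYBPH in PC3, TMOD1 on 3 arrays) limit what can be read from those levels.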
